A study of Mus musculus with 8 samples.

Results

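The 32 collagen genes other than type IV were described across 4 Brap LKO and 4 Brap F/F mouse livers. They are the protein-coding rows, among 24451 genes, whose symbol is Col followed by a chain number, without the type IV chains. By class they comprised 9 fibrillar chains, 7 FACIT chains (fibril-associated collagens), 6 microfibrillar chains of type VI, 2 short-chain network chains of type VIII, the anchoring fibril chain Col7a1, 4 transmembrane chains, 2 multiplexins and Col28a1. Brap LKO mice carried 2 floxed Brap alleles and the Albumin-Cre transgene, and Brap F/F mice carried the same floxed alleles without Cre. The albumin promoter drives Cre in hepatocytes, so fibroblasts, stellate cells and endothelial cells, which make much of the collagen of a liver, are not its intended target. All mice were C57BL/6 and 18 weeks old and had been fasted for 6 h, and the study used males. Each library came from the left lobe of 1 liver.

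A collagen is built from 3 alpha chains wound into a triple helix, each chain having its own gene. Fibrillar collagens of types I, III and V form the cable-like fibrils that accumulate in scarred liver, FACIT chains sit on the surface of fibrils, and type VI assembles into beaded microfibrils near cells. Types XV and XVIII are proteoglycan collagens of basement membrane zones, and fragments released from their ends include endostatin. In liver, stellate cells and portal fibroblasts are the main known sources of fibrillar collagen, while Col18a1 is also made by hepatocytes.

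The libraries held 26280884 to 33313914 reads on genes. Values are normalized counts, that is reads on a gene divided by the authors' DESeq2 size factor of the liver. The targeted gene, Brap, ranged from 3641 to 4203 normalized counts in Brap LKO livers and from 3994 to 4410 in Brap F/F livers (log2 difference -0.07, adjusted p = 0.631, limma). Cre removes only some exons of Brap, so reads on the whole gene are no check of the labels. Alb, the defining hepatocyte product, was high in every liver. It ranged from 1438250 to 2146523 normalized counts in Brap LKO and from 1933909 to 3058028 in Brap F/F livers (log2 difference -0.52, adjusted p = 0.634, limma). In bulk tissue, a change in the number of cells of a type and a change in RNA per cell cannot be told apart.

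The main type VI microfibril chains and the chains of types I and III had higher mean counts in Brap LKO livers, and Col6a3 was the 1 member whose rise passed the test. Col6a3 rose 2.6-fold (95% interval 1.88 to 3.59). Col1a1, Col1a2, Col3a1, Col5a2, Col6a1 and Col6a2 had fold values from 1.93 to 2.71 with adjusted p from 0.0566 to 0.137. Col18a1, by far the most abundant member, differed by a factor of 0.964 (95% interval 0.816 to 1.14). Of the 32 members, 27 reached a mean of 5 normalized counts and were tested with limma on log2(normalized count + 1), a scale that understates the change of genes with few reads. Benjamini-Hochberg adjustment ran over all 15352 genes tested.

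Read against all genes, the members leaned upward. The count past an adjusted p of 0.05 was 1 of 27 higher, where 0.664% of all tested genes were called higher, and 0 of 27 lower, where the background was 0.104%. At an unadjusted p under 0.05, 9 of 27 were higher (background 9.23%) and 0 were lower (background 6.59%). In 6 members, namely Col1a2, Col5a2, Col6a1, Col6a2, Col6a3 and Col8a2, every Brap LKO liver lay above every Brap F/F liver, a pattern held by 5.48% of all genes, and in 0 members did every Brap LKO liver lie below, against 4.39%. Fold changes were above 0 in 18 of the 27, against 48% of all genes, and below 0 in 9, against 52%. Their median log2 fold change was 0.33, with a range from -0.50 for Col7a1 to 1.44 for Col1a1, while the median over all genes was -0.01. DESeq2 on the recovered reads called 7 of the 27 higher (background 2.96%) and 0 lower (background 1.11%). Those 7 were Col1a1, Col1a2, Col3a1, Col5a2, Col6a1, Col6a2 and Col6a3. The edgeR quasi-likelihood test called 1 higher (background 0.703%) and 0 lower (background 0.0912%).

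**Figure D1:**
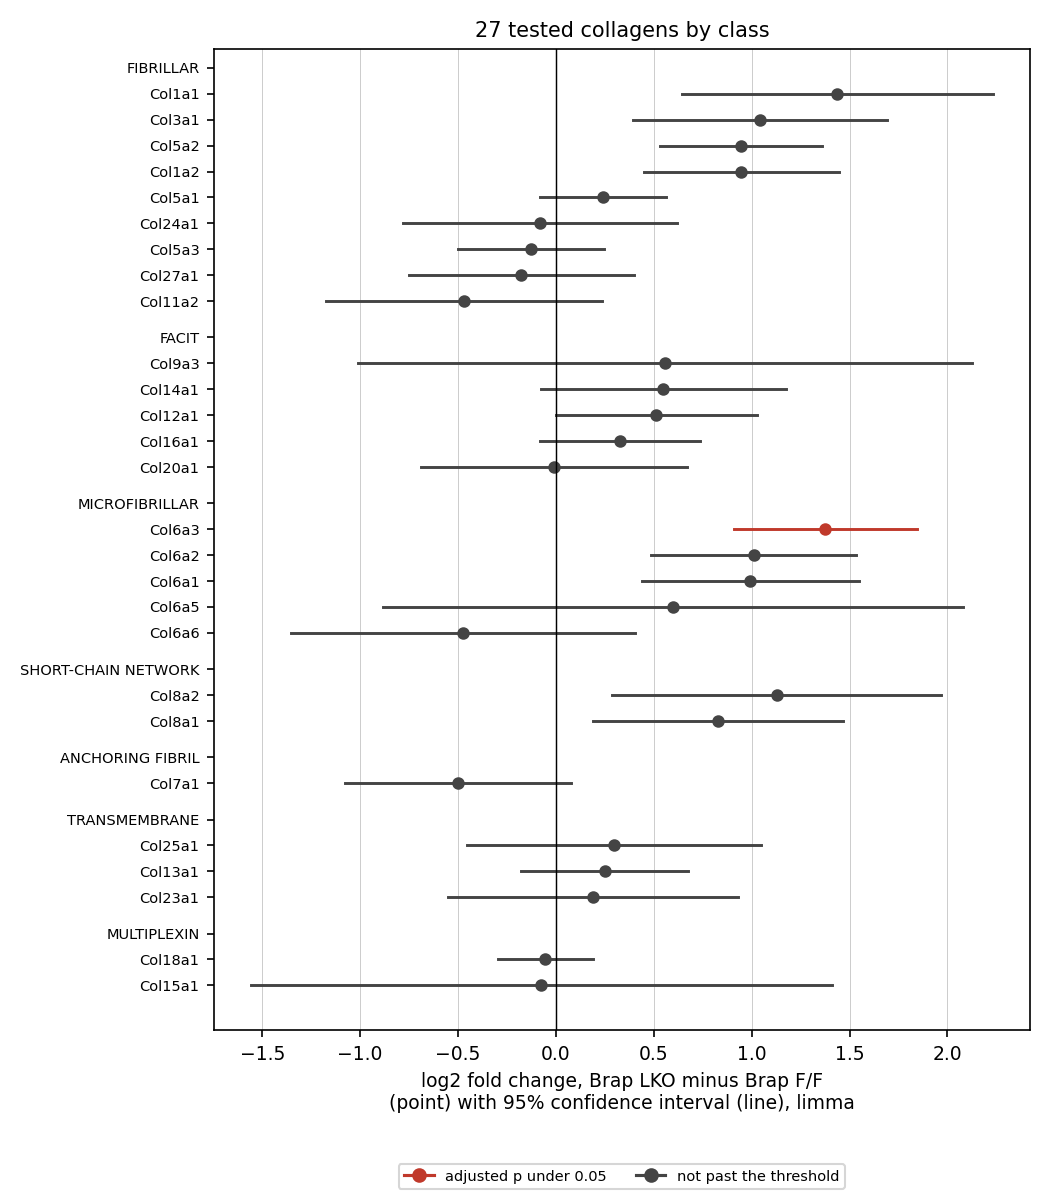
Log2 fold change (x axis, Brap LKO minus Brap F/F, n = 4 each) of the 27 tested members by class, with points for the estimates and lines for 95% confidence intervals. Col6a3 at 1.38 is the 1 member past the threshold, the intervals of 8 further members lie wholly above 0, and Col15a1 has an interval from -1.56 to 1.41.

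Per length of exon, the collagen transcripts of these livers were mostly Col18a1. Its mean level was 5844 normalized counts per kb in Brap LKO and 6077 in Brap F/F livers, and it made up 81.3% ± 2.62 (SD, n = 4) and 85.3% ± 1.37 (SD, n = 4) of the per-kb total of all members. Next came the fibrillar chain Col5a3 (234 and 262 per kb), the FACIT chain Col14a1 (270 and 193 per kb) and the fibrillar chain Col27a1 (173 and 199 per kb). Col3a1 (113 and 55.2 per kb), Col6a1 (108 and 54.3 per kb) and Col1a1 (94.6 and 35.2 per kb) followed. Summed per kb, the fibrillar chains stood at 725 ± 77.7 (SD, n = 4) in Brap LKO and 624 ± 53.1 (SD, n = 4) in Brap F/F livers. Type VI chains summed to 213 ± 57.1 (SD, n = 4) and 101 ± 20.4 (SD, n = 4) per kb. Much of the fibrillar sum was Col5a3 and Col27a1, whose groups overlapped. Col3a1 and Col6a1, or Col14a1 and Col5a3, are neighbours in this order whose per-liver values overlapped in both groups.

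**Figure D2:**
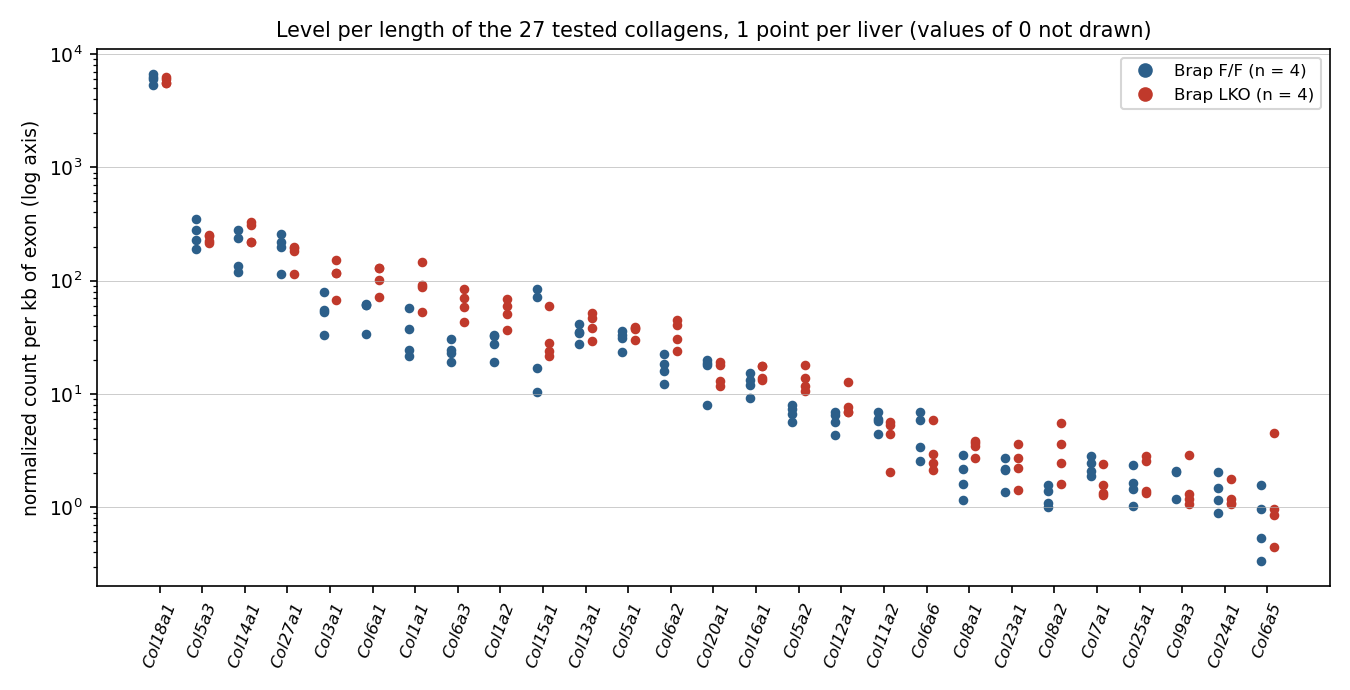
Normalized count per kb of exon (log y axis) of the 27 tested members, ordered by mean level (x axis), with 1 point per liver in blue for Brap F/F and red for Brap LKO (n = 4 each). Col18a1 sits near 5960 per kb, above the next member, Col5a3, at 248 per kb, and the red points lie above the blue ones in Col6a1, Col6a3, Col1a2, Col6a2, Col5a2 and Col8a2.

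Type VI collagen held the 1 member past the threshold and 3 of the 6 whose groups did not overlap. Col6a3 (chromosome 1 of mm10, 90765923 to 90843971, minus strand) encodes the large chain that joins the other 2 in the type VI trimer. Its normalized counts were 707, 517, 849 and 1002 in Brap LKO replicates 1 to 4 and 228, 275, 295 and 367 in Brap F/F replicates 1 to 4. The lowest Brap LKO liver lay above the highest Brap F/F liver. This gave a log2 difference of 1.38 (standard error 0.208, limma adjusted p = 0.0286). Leaving out 1 liver at a time kept the log2 fold change between 1.24 and 1.55. The adjusted p stayed under 0.05 without Brap F/F replicate 4 (0.0185), or with Brap LKO replicate 2 removed (0.0216), and lay between 0.0586 and 0.0916 without any other single liver (replicates 1, 3 and 4 of Brap LKO and 1 to 3 of Brap F/F).

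Col6a1 (chromosome 10, 76708792 to 76726168) and Col6a2 (chromosome 10, 76595762 to 76623630) encode the shorter chains of the same trimer and lie 85.2 kb apart on the minus strand. For Col6a1 the values were 445, 312, 569 and 572 normalized counts in Brap LKO livers and 147, 270, 270 and 265 in Brap F/F livers. For Col6a2 they were 257, 199, 339 and 373 against 101, 153, 134 and 186. Neither gene's groups overlapped, and Brap LKO replicate 2 was the lowest of its group in both, as in Col6a3. Their log2 fold changes were 0.99 (standard error 0.247, adjusted p = 0.104) and 1.01 (standard error 0.233, adjusted p = 0.0881), which did not pass the threshold.

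The other type VI chains, Col6a5 and Col6a6, can take the place of the Col6a3 chain in a trimer and lie side by side on chromosome 9 (Col6a6 from 105687809 to 105828160, Col6a5 from 105856078 to 105960643). They were sparse here. Col6a5 was counted at 9.11, 4.25, 8.09 and 42.6 in Brap LKO and at 9.12, 5.09, 3.15 and 14.7 in Brap F/F livers. Its Brap LKO mean rested on replicate 4, and without that liver the log2 fold change went from 0.60 to -0.02. Col6a6 was counted at 22.8, 19.5, 27.3 and 54.1 against 63.8, 23.4, 31.5 and 54.0, with overlapping groups (log2 fold change -0.47, standard error 0.390, adjusted p = 0.577). The highest livers of both genes were Brap LKO replicate 4 and Brap F/F replicates 1 and 4. Col6a4 had 1 read in each group and was not tested.

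**Figure D3:**
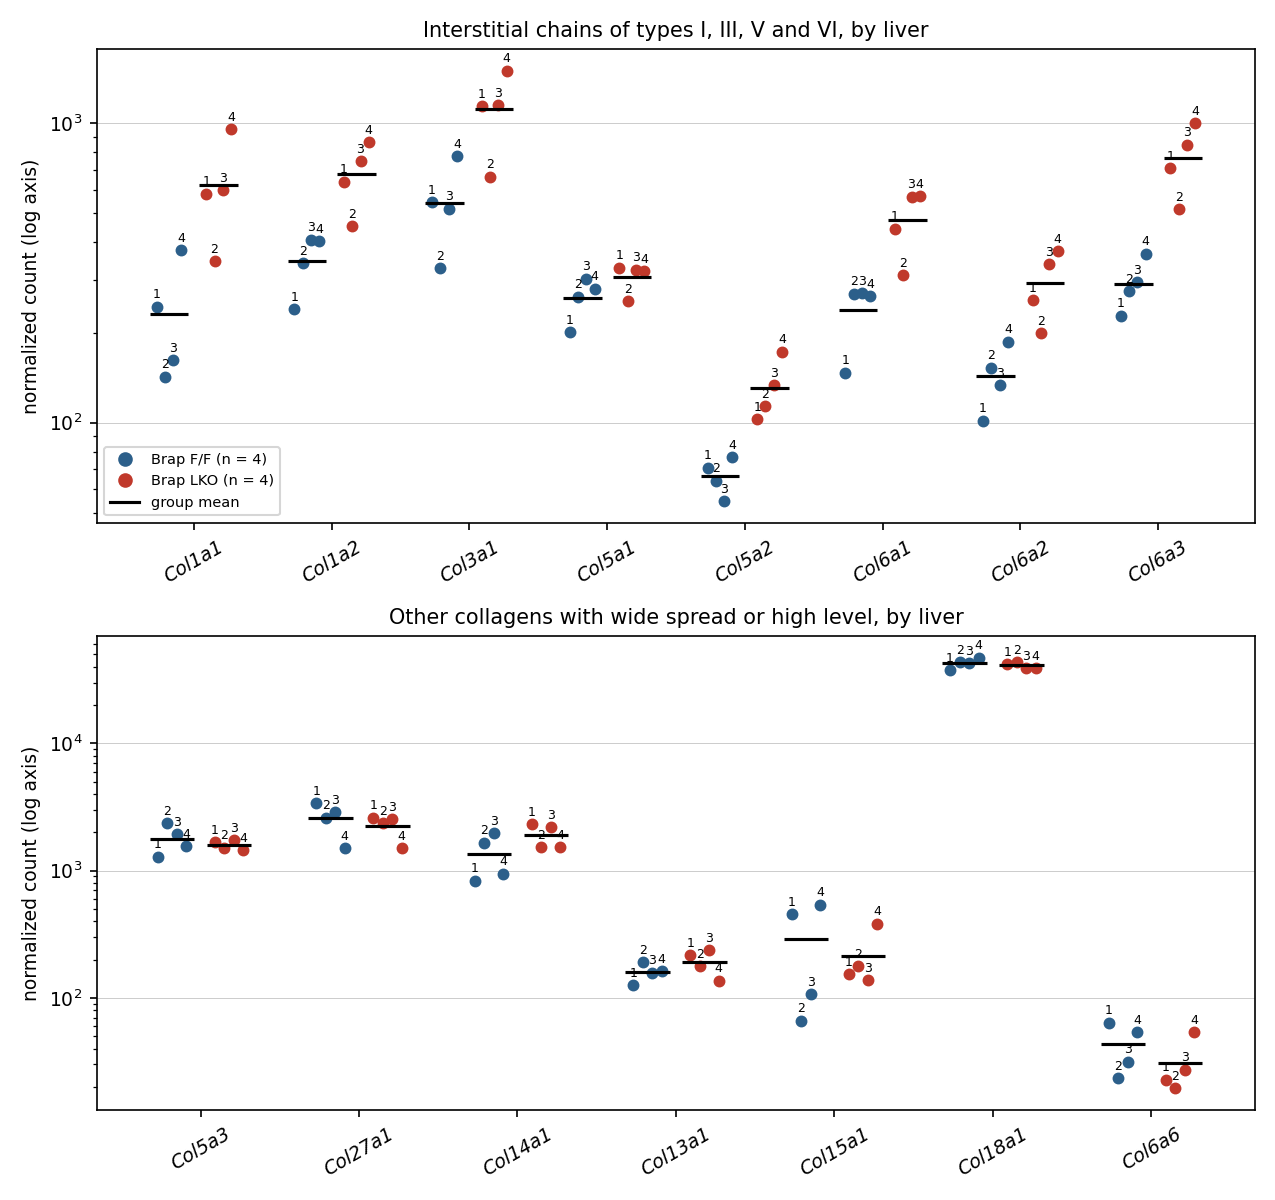
Normalized count (log y axis) of 15 members in each liver, with Brap F/F in blue, Brap LKO in red, replicate numbers above the points and bars for group means (n = 4 each). In the upper panel the groups do not overlap for Col1a2, Col5a2, Col6a1, Col6a2 and Col6a3, and Brap LKO replicate 4 is the highest liver for all but Col5a1. In the lower panel the groups overlap for every gene.

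The chains of types I and III, the bulk of scar collagen, had differences of about the same size. Col1a1 (chromosome 11, 94936224 to 94953042) was counted at 582, 347, 599 and 955 in Brap LKO and at 244, 142, 162 and 377 in Brap F/F livers. Its partner Col1a2 (chromosome 6, 4504814 to 4541544) had 638, 454, 748 and 863 against 239, 341, 409 and 403. Col3a1 (chromosome 1, 45311538 to 45349706) had 1140, 663, 1148 and 1498 against 545, 328, 518 and 775. Col1a2 did not overlap between groups, whereas for Col1a1 and Col3a1 Brap LKO replicate 2 lay below Brap F/F replicate 4. Log2 fold changes were 1.44 for Col1a1 (standard error 0.353, adjusted p = 0.103), 0.95 for Col1a2 (standard error 0.222, adjusted p = 0.0939) and 1.04 for Col3a1 (standard error 0.288, adjusted p = 0.137). None passed the threshold in the main limma fit (all 8 livers, the authors' size factors, no covariates). With the replicate number as a block, Col1a1 (adjusted p = 0.0160) and Col3a1 (adjusted p = 0.00754) passed, though these numbers were not taken as pairs. Col1a1 also passed without Brap F/F replicate 4 (1.71, adjusted p = 0.0456), and Col1a2 with equal totals (adjusted p = 0.0331). Equal totals moved the median log2 fold change of all genes to 0.15. DESeq2 on the recovered reads called all 3 chains (adjusted p = 0.00295 for Col1a1, 0.00224 for Col1a2 and 0.0114 for Col3a1). In all 3, as in Col5a2 and the 3 main type VI chains, Brap LKO replicate 4 was the highest of the 8 livers.

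Type V collagen, a minor component that starts fibrils and limits their width, had no chain past the threshold in the main limma fit. Col5a2 (chromosome 1, 45374321 to 45503282, 24.6 kb from Col3a1 on the opposite strand) had 103, 114, 134 and 173 normalized counts in Brap LKO and 70.7, 64.1, 54.7 and 76.5 in Brap F/F livers. Its groups did not overlap, and the log2 difference was 0.95 (standard error 0.184) with an adjusted p of 0.0566, the closest to the threshold after Col6a3. Without Brap F/F replicate 4 the adjusted p was 0.0492. Col5a1 (chromosome 2, 27886425 to 28039514), the chain shared by most type V trimers, had 330, 255, 325 and 321 against 201, 263, 303 and 281. Its groups overlapped, with a log2 difference of 0.24 (95% interval -0.08 to 0.56, adjusted p = 0.441). The ratio Col5a1 to Col5a2 within livers also overlapped between groups (exact permutation p = 0.0571, adjusted p = 0.152), so unlike changes of these chains were not shown. Col5a3 (chromosome 9, 20770050 to 20815067), a rarer chain in most tissues, was the most abundant fibrillar member per kb of exon union in these livers. By mean normalized count, not divided by length, Col27a1 was higher. Col5a3 is described here by its counts. Its values were 1676, 1516, 1736 and 1456 against 1285, 2365, 1926 and 1561, the Brap LKO livers lying inside the range of the Brap F/F livers. The log2 fold change of Col5a3 was -0.13 (95% interval -0.50 to 0.25, adjusted p = 0.732) and turned to 0.03 when every liver was scaled to the same total.

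The remaining fibrillar chains did not pass the test. Col27a1 ranged from 1501 to 2601 normalized counts in Brap LKO and from 1503 to 3370 in Brap F/F livers, and its lowest livers were replicate 4 of each group. Its log2 fold change was -0.18 (adjusted p = 0.762). Col11a2, best known from cartilage, ranged from 14.2 to 39.2 against 30.5 to 48.1 (log2 fold change -0.47, adjusted p = 0.490). Col24a1 ranged from 8.20 to 13.6 against 6.84 to 15.8 (log2 fold change -0.08, adjusted p = 0.920).

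Promoter sequence of leading members is given where the window lay wholly outside the gene. RefSeq for build GRCm38.p6 (the build called mm10) gives the 250 bases before each transcript start, read 5' to 3' on the strand of the gene. There 26 members matched with 28 windows, and those not matched were Col1a1, Col5a2, Col12a1, Col14a1, Col9a3 and Col22a1. Some RefSeq starts differ from those of the GENCODE annotation behind the gene coordinates, and 12 of the 28 windows, those of Col1a2 and Col6a1 and 1 of the 2 of Col6a2 among them, hold bases inside the GENCODE span of the gene. The 3 windows given are chr1:90843972-90844221 (Col6a3, minus strand), chr10:76623631-76623880 (Col6a2, minus strand) and chr1:45311288-45311537 (Col3a1, plus strand), shown because these are leading members of types VI and III. Capitals mark matches on either strand to the letters GGAATG (bound by TEAD factors), TGACTCA (AP-1), CCAAT (bound by NF-Y), TATAAA (bound by the TATA-binding protein) or GGGCGG (an Sp1 GC box).
Col6a3: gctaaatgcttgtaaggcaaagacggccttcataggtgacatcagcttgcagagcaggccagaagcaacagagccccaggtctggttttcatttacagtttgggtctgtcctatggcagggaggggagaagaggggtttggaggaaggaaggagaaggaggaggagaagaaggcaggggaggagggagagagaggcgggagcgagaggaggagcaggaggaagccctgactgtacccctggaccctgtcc
Col6a2: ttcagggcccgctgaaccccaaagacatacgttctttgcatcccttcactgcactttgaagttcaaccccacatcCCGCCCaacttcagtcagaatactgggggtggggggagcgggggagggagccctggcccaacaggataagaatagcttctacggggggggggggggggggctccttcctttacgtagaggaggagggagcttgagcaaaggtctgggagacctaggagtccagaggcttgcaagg
Col3a1: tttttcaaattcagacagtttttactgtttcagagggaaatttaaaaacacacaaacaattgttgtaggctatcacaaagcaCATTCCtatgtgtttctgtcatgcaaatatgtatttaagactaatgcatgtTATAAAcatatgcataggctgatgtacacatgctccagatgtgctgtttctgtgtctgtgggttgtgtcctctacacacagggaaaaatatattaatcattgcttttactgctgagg
The GC content was 57.2% for Col6a3, 59.2% for Col6a2 and 35.2% for Col3a1. The Col6a3 window held none of the 5 strings. GGAATG, the string of the TEAD factors that act with YAP in the Hippo pathway, was present in 4 of the 28 windows of members, against 12.6% of all 32851 promoters of the same length. It lay 168 bases before the start in Col3a1 (the first letter counted), and was also found in the other window of Col6a2, in a window of Col18a1 and in that of Col20a1. TGACTCA was present in 1 of 28 windows, that of Col6a1, against 4.46% of all promoters. CCAAT was present in 8 of 28 against 33.8%, TATAAA in 4 of 28 against 12.4%, and GGGCGG in 18 of 28 against 32.7%. These are matches of letters, not measured binding sites.

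The labels give each mouse an animal number, and these cluster into a low and a high run whose meaning is not stated. The low run held Brap LKO replicates 1 to 3 and Brap F/F replicate 1, and the high run Brap LKO replicate 4 and Brap F/F replicates 2 to 4. Within both runs at once, every Brap LKO liver lay above every Brap F/F liver in 11 of the 27 tested members, against 11.4% of all genes, and below in 1 (Col27a1), against 10.3%. The 11 were Col1a1, Col1a2, Col3a1, Col5a1, Col5a2, Col6a1, Col6a2, Col6a3, Col8a1, Col8a2 and Col12a1. For Col6a3 the difference of mean log2 values was 1.57 in the low and 1.69 in the high run. For Col1a1 it was 1.02 and 2.21, and for Col3a1 0.81 and 1.55. With the run as a covariate, Col6a3 (log2 fold change 1.63, adjusted p = 0.0117), Col1a2 (1.25, adjusted p = 0.0280), Col6a1 (1.31, adjusted p = 0.0367) and Col6a2 (1.30, adjusted p = 0.0367) passed the threshold. With 1 liver of a group in each run, the part of the run in these differences was not tested further. The number of all genes called higher also moved between settings of the fit, from 11 to 459 (102 in the main fit).

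FACIT chains did not pass the test, and 4 of the 5 tested had fold changes above 0, where 48% of all genes did. Col14a1 (chromosome 15, 55307750 to 55520803), which binds type I fibrils, had 2324, 1526, 2184 and 1535 normalized counts in Brap LKO and 835, 1655, 1980 and 948 in Brap F/F livers. The groups overlapped, since Brap F/F replicates 2 and 3 lay in the Brap LKO range and replicates 1 and 4 well under it (log2 fold change 0.55, 95% interval -0.08 to 1.18, adjusted p = 0.373). Col12a1, the other main partner of type I fibrils, ranged from 105 to 193 against 65.7 to 105 (log2 fold change 0.51, adjusted p = 0.316). Col16a1 (0.33), Col9a3 (0.56) and Col20a1 (-0.01) had adjusted p from 0.413 to 0.990.

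Type VIII, a short-chain collagen of vessel walls and corneal membranes, was scarce, at 30.2 normalized counts or fewer in every liver. Col8a1 (chromosome 16, 57624258 to 57754737) had 27.3, 28.9, 21.2 and 30.2 in Brap LKO and 17.1, 9.15, 12.6 and 22.6 in Brap F/F livers, where only Brap F/F replicate 4 reached into the Brap LKO range (log2 fold change 0.83, adjusted p = 0.217). Col8a2 had 7.29, 11, 16.2 and 25.0 against 4.56, 7.12, 6.31 and 4.91 without overlap (log2 fold change 1.13, adjusted p = 0.202). Col7a1 (chromosome 9, 108953586 to 108984875), the anchoring fibril chain of skin, had 13.7, 16.1, 13.2 and 25.0 against 19.4, 29.5, 25.2 and 21.6. It was the member with the lowest fold change (log2 fold change -0.50, 95% interval -1.08 to 0.08, adjusted p = 0.379), and its groups overlapped through Brap LKO replicate 4.

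Transmembrane collagens, which span the cell membrane with their helix outside, did not pass the test. Col13a1 (chromosome 10, 61838236 to 61979108), the most abundant, had 216, 178, 237 and 136 normalized counts in Brap LKO and 127, 191, 158 and 162 in Brap F/F livers. Both the highest and nearly the lowest value were in Brap LKO livers (log2 fold change 0.25, 95% interval -0.18 to 0.67, adjusted p = 0.543). Col23a1 (0.19, adjusted p = 0.805) and Col25a1 (0.30, adjusted p = 0.685) reached at most 20.8 and 36.4 normalized counts in any liver.

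The multiplexins differed from each other in level and in spread, and neither passed the test between the groups. Col18a1 (chromosome 10, 77052178 to 77166548, 326 kb from Col6a1), the source of endostatin, had 42062, 43676, 39161 and 39214 normalized counts in Brap LKO and 37405, 43667, 42431 and 47155 in Brap F/F livers. All Brap LKO livers lay inside the Brap F/F range. The log2 fold change was -0.05 (95% interval -0.29 to 0.19, adjusted p = 0.834), and its sign turned under quantile normalization (0.12) and under equal totals (0.10). Col15a1 (chromosome 4, 47208161 to 47313167), a collagen of vessel and portal basement membrane zones, had 153, 178, 138 and 383 against 455, 66.1, 107 and 541. The Brap F/F livers alone spanned an 8.18-fold range, with replicates 1 and 4 high and 2 and 3 low. The log2 fold change of -0.07 carried a 95% interval from -1.56 to 1.41 (adjusted p = 0.966, limma). A rise or a fall of any size within these bounds is thus compatible with the data.

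The 5 members under the filter were counted by a few reads. Col28a1, a von Willebrand domain collagen known from nerve, had 7, 0, 6 and 20 reads in Brap LKO replicates 1 to 4 and 0, 0, 0 and 1 in Brap F/F replicates 1 to 4. Reads thus came from 3 of 4 Brap LKO livers and 1 of 4 Brap F/F livers, and without the filter its adjusted p was 0.260 (limma). Col9a2 had 0, 2, 1 and 1 reads in Brap LKO replicates 1 to 4 and 0 in every Brap F/F liver. Summed over the Brap LKO and over the Brap F/F livers, Col22a1 had 9 and 5 reads, Col17a1 10 and 5, and Col6a4 1 and 1. Where a liver had 0 reads, up to 3 remain possible from counting error alone.

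Pairs of chains were next compared within each liver, as log2 ratios of normalized counts. Of the 8 pairs, all but Col6a1 with Col1a1 and Col15a1 with Col18a1 share a trimer or a fibril. The groups were compared by a two-sided exact permutation test (70 arrangements of the livers, smallest possible p 0.0286). For any pair to pass 0.05 after adjustment over the 8, at least 5 would have to reach that smallest p together, so the adjusted values (0.152 to 1) had little room to pass and do not show that the ratios were alike. The ratio Col6a2 to Col6a1 was the steadiest, from 0.578 to 0.653 in Brap LKO and from 0.494 to 0.704 in Brap F/F livers (difference of log2 ratios 0.02, standard error 0.128, exact permutation p = 0.943). The ratio Col6a3 to Col6a1 was 1.59, 1.66, 1.49 and 1.75 in Brap LKO and 1.55, 1.02, 1.09 and 1.39 in Brap F/F livers. Only Brap F/F replicate 1 reached into the Brap LKO range (difference of log2 ratios 0.38, standard error 0.150, exact permutation p = 0.0571, adjusted p = 0.152). The ratio Col3a1 to Col1a1 was 1.96, 1.91, 1.92 and 1.57 against 2.23, 2.31, 3.20 and 2.06, lower in 4 of 4 Brap LKO livers than in any Brap F/F liver. Its difference of log2 ratios was -0.39 (standard error 0.158, exact permutation p = 0.0286, adjusted p = 0.152). The ratio Col5a1 to Col5a2 was 3.20, 2.24, 2.43 and 1.86 against 2.84, 4.11, 5.54 and 3.67, with overlap between Brap LKO replicate 1 and Brap F/F replicate 1. There the difference of log2 ratios was -0.71 (standard error 0.256, exact permutation p = 0.0571, adjusted p = 0.152).

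The ratio Col1a1 to Col1a2 split the control livers. In Brap F/F replicates 1 to 4 it was 1.02, 0.418, 0.396 and 0.934, and in Brap LKO replicates 1 to 4 it was 0.913, 0.763, 0.801 and 1.11. The Brap LKO livers lay near Brap F/F replicates 1 and 4, and apart from replicates 2 and 3, so the groups overlapped (difference of log2 ratios 0.49, exact permutation p = 0.343, adjusted p = 0.495). The ratio Col6a1 to Col1a1 has Col1a1 as its denominator, so a shift in Col1a1 alone moves both ratios, in opposite directions. It was 0.603, 1.89, 1.67 and 0.703 in Brap F/F and 0.764, 0.900, 0.949 and 0.599 in Brap LKO livers (difference of log2 ratios -0.44, exact permutation p = 0.371, adjusted p = 0.495). Col5a2 to Col1a1 (-0.49, exact permutation p = 0.171, adjusted p = 0.343) and Col15a1 to Col18a1 (-0.02, exact permutation p = 1, adjusted p = 1) completed the pairs.

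**Figure D4:**
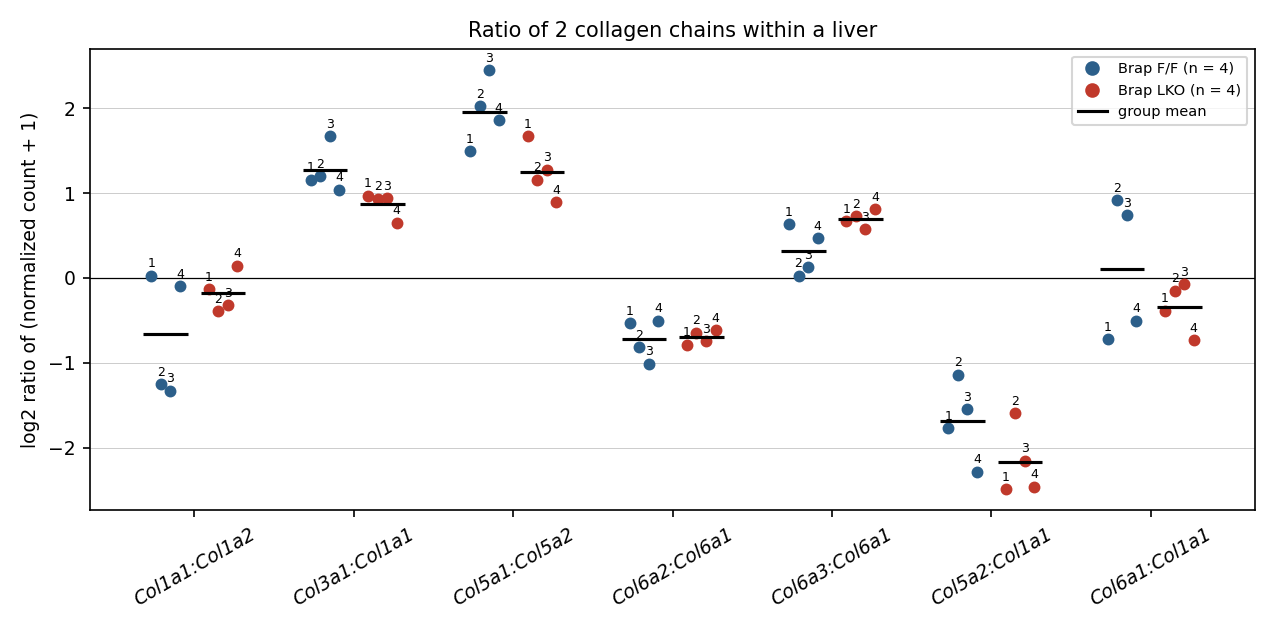
Log2 ratio of normalized counts (+ 1) of a pair of chains in each liver (y axis) for 7 of the 8 pairs (x axis), with Brap F/F in blue, Brap LKO in red, replicate numbers above the points and bars for group means (n = 4 each). Brap F/F replicates 2 and 3 stand apart at -1.25 and -1.33 for Col1a1:Col1a2, and Col3a1:Col1a1 is the 1 pair whose groups do not overlap.

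Collagen chains need a set of enzymes and chaperones, and 33 of 36 listed genes of this machinery were in the table, of which 30 were tested. A single gene rose and 1 fell (background 0.664% and 0.104% of all genes), with 11 higher and 1 lower at an unadjusted p under 0.05 (background 9.23% and 6.59%) and a median log2 fold change of 0.22. The gene that rose was Loxl1, a lysyl oxidase that crosslinks collagen and elastin. It was counted at 116, 86.6, 102 and 201 in Brap LKO and at 38.8, 28.5, 30.5 and 56.9 in Brap F/F livers, without overlap (log2 fold change 1.66, standard error 0.296, adjusted p = 0.0446). The call was kept without Brap F/F replicate 4 (adjusted p = 0.0238) and lost without any other single liver (adjusted p up to 0.149). All 5 tested crosslinking enzymes had fold changes above 0, where 48% of all genes did. Their median was 0.68 on the log2 scale, and the 4 other than Loxl1 did not pass the test. The gene that fell was P4ha2, a catalytic subunit of the prolyl hydroxylase that stabilizes the triple helix. It had 127, 157, 148 and 157 against 288, 294, 193 and 262, again without overlap (log2 fold change -0.80, standard error 0.148, adjusted p = 0.0494). The call was lost under 7 of 12 other settings of the fit and, of the 8 fits without 1 liver, kept only in that without Brap F/F replicate 3 (adjusted p = 0.0239). The abundant members P4hb, the shared subunit of that enzyme (log2 fold change -0.23, adjusted p = 0.367), and Pdia3, a folding enzyme (0.00, adjusted p = 0.999), did not pass the test.

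Of 13 listed collagen receptors 11 were tested, 1 rose and 0 fell (background 0.664% and 0.104%), and the median log2 fold change was 0.34. Mrc2, the receptor that takes up cleaved collagen for degradation, was counted at 148, 110, 156 and 202 in Brap LKO and at 45.6, 42.7, 42.0 and 67.7 in Brap F/F livers. Every Brap LKO liver lay above every Brap F/F liver (log2 fold change 1.61, standard error 0.218, adjusted p = 0.0180). The call was lost without Brap LKO replicate 1, 3 or 4 or Brap F/F replicate 2 or 3 (adjusted p up to 0.0716). Among the abundant receptors, Itgb1, the beta subunit of the collagen-binding integrins, had a log2 difference of -0.01 (95% interval -0.18 to 0.15, adjusted p = 0.944), and Antxr2, a receptor that clears type VI collagen, had 0.34 (95% interval -0.12 to 0.81, adjusted p = 0.447). The integrin subunits had a median of -0.01 and the other receptors one of 0.66.

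**Figure D5:**
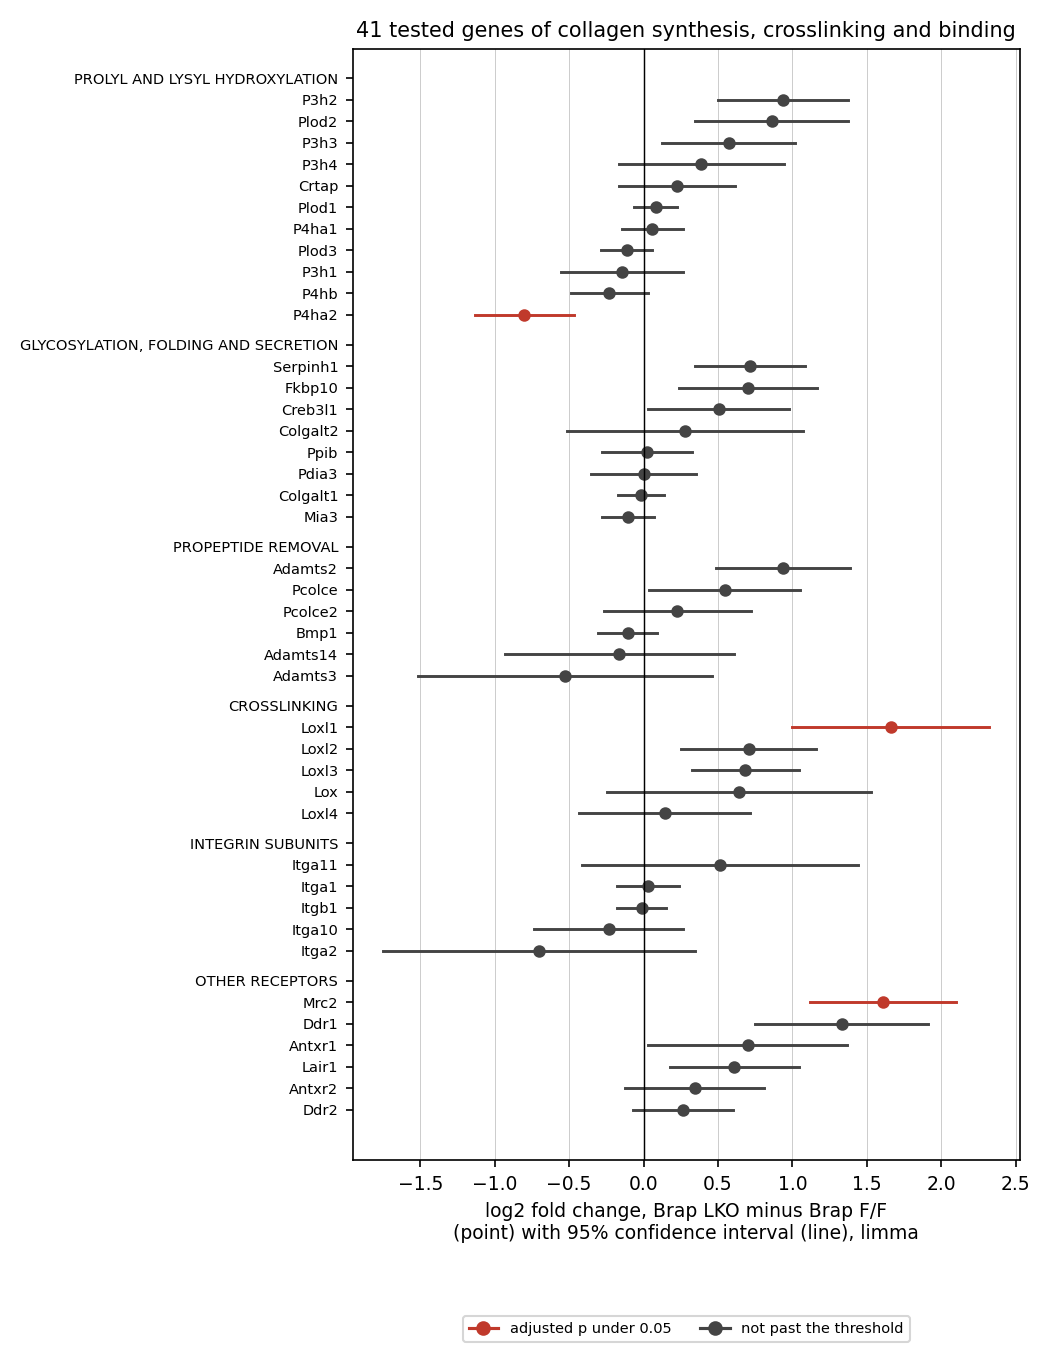
Log2 fold change (x axis, Brap LKO minus Brap F/F, n = 4 each) of the 41 tested genes of collagen synthesis, crosslinking and binding by subgroup, with points for the estimates and lines for 95% confidence intervals. Loxl1 (1.66), Mrc2 (1.61) and P4ha2 (-0.80) are past the threshold, and the 5 crosslinking enzymes all lie above 0.

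Marker genes of several other cell types also lay mostly above 0, where 48% of all genes did and 0.664% were called higher. Of 12 genes marking myofibroblasts and portal fibroblasts, 10 were tested and 9 lay above 0 (median log2 fold change 0.73), with summed levels of 1075 to 1686 normalized counts in Brap LKO and 762 to 1011 in Brap F/F livers. Fbln2 was the 1 that passed the test, and Postn was the 1 below 0 (log2 fold change -0.84, limma adjusted p = 0.253). The 11 genes listed for stellate cells had a median of 0.22, with 8 above 0 and 3 below. Their sums overlapped (6594 to 9713 against 5513 to 11009), and Pdgfrb was the 1 that passed. The 9 cholangiocyte markers all lay above 0 (median 0.96), with sums of 1953 to 3875 against 1149 to 2155, and Cftr passed. Medians were -0.30 for the 8 hepatocyte, 0.22 for the 8 sinusoidal endothelial, 0.39 for the 8 macrophage, -0.03 for the 6 mesothelial and 0.58 for the 8 lymphocyte markers. In these 5 lists, 1 marker passed the test, Wt1 of the mesothelium (log2 fold change 2.43). No marker of any list was at 0 in all 8 livers. The part of these cell types in the collagen differences was not tested.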

How the data were processed

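Frozen left liver lobe RNA from both genotypes (4 mice each, Brap LKO or Brap F/F) was sequenced by the authors as single-end reads of 50 bases and aligned to mm10 with STAR 2.6.0c. The counting tool, annotation release and use of strand are not given in the sources used here. The deposited signal is the read count per gene divided by the authors' DESeq2 size factor of the liver. Every value was a whole multiple of 1 read (tolerance 0.01), so reads were recovered. The authors also deposited their own DESeq2 comparison (fold changes and p-values), which was not used.

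Log2(normalized count + 1) was compared with limma 3.58.1 (mean-variance trend, R 4.3.3) over the 15352 genes with a mean of at least 5, without covariates, and adjusted by the Benjamini-Hochberg method at 0.05. The study used DESeq2, which needs counts, so edgeR 4.0.16 and DESeq2 1.42.0 on recovered reads were alternatives, beside other pseudocounts (0.5, 5), filters (none, 20), scalings (quantile, equal totals, TMM), no trend, the animal number run (low or high) as a covariate, blocking on replicate number, and leaving out each liver. Scripts were tested on simulated data. P-values measure the spread between 4 livers per group.

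Levels per kb used the union of exons in GENCODE M21 (mm10). Exons of 9 members share bases with another gene, at most 6.07% (Col9a3), so reads of both cannot be told apart there. Values are given liver by liver for called members, type I, III, V and VI chains, multiplexins and the most abundant member per kb of each class, and Col8a2 and the untested members were added after their values were seen. In the lists of machinery and receptors, genes past the threshold (up to 6) and the 2 most abundant others are named. The members and all lists were chosen with earlier results of these data known.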

Additional observations from a re-analysis of the deposited data

Results flagged for a closer look

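In 7 of 64 groups of 4 livers examined, 1 liver lay far from the other 3 (the gap to the nearest was over 0.829 of the range of the group). About 3.2 would be expected for separate groups of normally spread values. The groups were not separate, as ratios and the genes within them were both examined, so the numbers are not a test. Col5a1 was at 255 normalized counts in Brap LKO replicate 2, with the nearest liver at 321. Col6a1 was at 147 in Brap F/F replicate 1, against 265 in the nearest. Brap LKO replicate 4 accounted for 4 of the 7. It had Col6a5 at 42.6 (nearest 9.11) and Col15a1 at 383 (nearest 178). Its log2 ratio of Col3a1 to Col1a1 was 0.65 (nearest 0.93), and its log2 ratio of Col15a1 to Col18a1 was -6.68 (nearest -7.93). The latter ratio repeats the Col15a1 value, since Col18a1 varied little among Brap LKO livers (39161 to 43676). Mrc2 was at 67.7 in Brap F/F replicate 4 (nearest 45.6). Brap LKO replicate 4 was also the highest of all 8 livers in 13 of the 27 tested members. The share of all genes with this liver highest is not given here. The count is therefore not shown to be particular to the members. Without Brap LKO replicate 4, Col6a3 kept a log2 fold change of 1.24 (adjusted p = 0.0733, limma).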

How the results depend on the processing

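The number of members called higher was 1 and became 5 with equal totals, 4 with the animal number run, 3 with the replicate block and 7 with DESeq2, and was 0 to 3 when 1 liver was left out. It was 1 under all other settings, and 0 members were called lower under any. Over all genes, the number called higher was 102 in the main fit and ranged from 11 to 459 across these settings. The number called lower was 16 and ranged from 4 to 170. The counts of members, machinery genes and receptors are to be read beside these moves. The median log2 fold change of the members ranged from 0.21 to 0.48, where equal totals moved the median of all genes to 0.15. Of the 27 tested members, 18 kept their sign in every setting. Machinery genes called higher (1) became 6 with equal totals, 5 with DESeq2, 2 with the block or the run, 0 at a minimum mean of 20, under quantile normalization or without the trend, and 0 to 1 without a liver. Those called lower (1) became 0 with a pseudocount of 0.5, a minimum of 20, equal totals, TMM, no trend, the block or the run, and 0 to 1 without a liver. Receptors called higher (1) became 2 with no filter, equal totals, the block, the run or DESeq2, and 0 to 2 without a liver.

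Signs turned for Col5a3 (0.030 with equal totals, -0.27 to 0.021 without a liver), Col6a5 (-0.022 to 0.997 without a liver), Col18a1 (0.12 quantile, 0.10 equal totals), Col15a1 (0.083 equal totals, -0.61 to 0.39 without a liver), Pdia3 (0.11 quantile, 0.16 equal totals, 0.015 TMM, -0.093 to 0.13 without a liver) and Itgb1 (0.11 quantile, 0.14 equal totals, 0.0022 TMM, 0.046 run, 6.3e-05 edgeR, -0.043 to 0.020 without a liver). They also turned for Col20a1 (8 of 20 settings), Col24a1 (3 of 19), Col23a1 (2 of 19), Col27a1 (1 of 20) and Col9a3 (1 of 18). Of the ratios, Col6a2 to Col6a1 ranged from -0.081 to 0.088, Col15a1 to Col18a1 from -0.57 to 0.42, Col3a1 to Col1a1 from -0.47 to -0.26 (exact permutation p 0.0286 to 0.0571) and Col6a3 to Col6a1 from 0.29 to 0.49 (p 0.0286 to 0.143) without a liver. The causes were not tested.

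Replicate numbers were not taken as pairs: deviations of same-numbered livers correlated at -0.13, 0.003, 0.20 and 0.29. With the number as a block, Col6a3, Col3a1 and Col1a1 were called. Genes with few reads, such as Col28a1 and Col8a2, are limited by depth.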

Other observations

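Col15a1, Col6a5 and Col6a6 had the same 3 highest livers, Brap LKO replicate 4 and Brap F/F replicates 1 and 4. The same livers held the 3 highest values of the ratio Col1a1 to Col1a2 (1.11, 1.02 and 0.934) and the 3 lowest of the ratio Col6a1 to Col1a1 (0.599, 0.603 and 0.703). Both ratios hold Col1a1, so they are not separate observations. Over all 15352 tested genes, 8.21% had these 3 livers highest and 5.73% had them lowest. For the members the counts were 3 of 27 (11.1%) and 0 of 27. The pattern was chosen after the values were seen and cuts across the groups.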
